A study of Rattus norvegicus with 57 samples.

Results

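The proximal tubule of the kidney takes filtered amino acids back into the blood, and 9 genes of that transport are described here in rats given cisplatin, a platinum drug that binds DNA and damages the tubule. The genes are Slc3a1, Slc7a9, Slc7a13, Slc1a1 and Slc6a18, whose proteins sit on the apical (urine-facing) side, Slc3a2, Slc7a7 and Slc7a8 on the basolateral (blood-facing) side, and Slc7a12, whose side is less settled. They were chosen by name, as the genes whose symbols the platform annotation gives, and where a gene had several probe sets the brightest on average stood for it. All 9 had a probe set and passed the filter on low signals, out of 11683 genes tested. Slc1a1 had 2 probe sets and the other members had 1 each.

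RNA came from tissue enriched in kidney cortex of 57 male Han Wistar rats, 8 weeks old, each hybridised to its own Affymetrix Rat 230 2.0 array. A rat had received a single intraperitoneal injection of cisplatin at 1 or 3 mg/kg in saline, or saline alone (0 mg/kg, called control), and its kidneys were taken on day 3, 5, 8 or 26. The 12 groups of dose and day held 5 arrays each, except 4 for the controls of day 26 and 3 for 1 mg/kg on day 5, where the study's text gives 6 rats per group. The labels call the samples biological replicates, and each rat is named below by its group and replicate number. The labels give no link between rats of the same number in different groups.

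Amino acid exchangers of the SLC7 family are light chains that reach the membrane bound to a heavy chain of the SLC3 family. At the apical membrane the heavy chain rBAT, encoded by Slc3a1, pairs with the light chain of Slc7a9 to take up cystine, lysine, arginine and ornithine, and loss of either gene in people causes cystinuria. In the last, straight segment of the tubule (S3), rBAT also pairs with the light chain of Slc7a13, which carries cystine and acidic amino acids. At the basolateral membrane the CD98 heavy chain, encoded by Slc3a2, pairs with the light chains of Slc7a7 and Slc7a8, which pass dibasic and neutral amino acids on to the blood. Slc1a1 encodes the apical glutamate and aspartate transporter and Slc6a18 an apical sodium-coupled transporter of glycine and other neutral amino acids. Slc7a12 encodes a light chain of the same family whose partner is not established.

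The bases just upstream of a gene's start are shown for 4 members, a pair that was lower on day 8 after 3 mg/kg (Slc7a12 and Slc3a1) and a pair that did not pass the test on that day (Slc7a9 and Slc6a18), so that their promoters can be set side by side. They are the 250 bases before the start in RefSeq's annotation of the rat assembly GRCr8, which gives a promoter window for 7 of the 9 members. Each is written 5′ to 3′ on the gene's own strand, and capitals mark an exact match to a motif searched on both strands.
Slc7a12, chr2:88868104-88868353, minus strand: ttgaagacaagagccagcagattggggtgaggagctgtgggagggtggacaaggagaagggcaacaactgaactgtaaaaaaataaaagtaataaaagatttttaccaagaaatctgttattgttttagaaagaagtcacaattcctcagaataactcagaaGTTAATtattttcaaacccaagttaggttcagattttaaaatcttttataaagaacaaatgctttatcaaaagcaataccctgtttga
Slc3a1, chr6:15394750-15394999, minus strand: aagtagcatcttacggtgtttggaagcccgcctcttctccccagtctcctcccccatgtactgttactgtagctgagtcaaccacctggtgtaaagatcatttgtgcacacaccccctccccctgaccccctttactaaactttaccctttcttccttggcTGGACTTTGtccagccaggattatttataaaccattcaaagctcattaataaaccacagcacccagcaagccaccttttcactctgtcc
Slc6a18, chr1:31436403-31436652, plus strand: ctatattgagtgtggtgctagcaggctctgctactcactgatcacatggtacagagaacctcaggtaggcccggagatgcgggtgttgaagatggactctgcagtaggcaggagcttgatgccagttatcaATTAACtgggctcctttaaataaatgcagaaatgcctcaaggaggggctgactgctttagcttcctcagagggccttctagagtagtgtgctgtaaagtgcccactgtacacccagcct
Slc7a9, chr1:97246632-97246881, plus strand: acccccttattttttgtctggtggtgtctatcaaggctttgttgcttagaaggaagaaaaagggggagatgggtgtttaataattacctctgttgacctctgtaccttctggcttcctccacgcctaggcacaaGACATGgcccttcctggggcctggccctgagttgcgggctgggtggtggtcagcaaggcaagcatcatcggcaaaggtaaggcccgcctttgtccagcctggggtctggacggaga
The capitals in Slc7a12 are the letters GTTAAT, part of the site of the tubular factor HNF1, at position -88 counted from the start site. Those in Slc6a18, ATTAAC, are GTTAAT read on the strand opposite to the one written, at position -119. Those in Slc3a1 are CAAAGTCCA, a site of the factor HNF4, read on the opposite strand at position -89. Those in Slc7a9 are CATGTC, the core of a p53 site, read on the opposite strand at position -116. GTTAAT occurred in 7.45% of the 33469 windows of 300 bases in the table (250 before and 50 after a start), CAAAGTCCA in 0.391% and CATGTC in 10.6%. A further CATGTC lay at position 36 of Slc3a1, after its start, and TGATGCAA, a site of the amino acid response present in 0.795% of windows, was found in none of the members' windows. None of these letters matched in the windows of Slc7a7, Slc7a8 and Slc3a2, whose stretches are not shown. Those shown are therefore the ones with a match before the start, and Slc7a7 and Slc7a8 were also lower on day 8. The Slc7a12 stretch was 33.6% G and C, against 48.4% in Slc3a1, 50.4% in Slc6a18 and 54.4% in Slc7a9. GTTAAT was present in Slc7a12, which was lower on day 8, and in Slc6a18, which did not pass the test. Any relation of these letters to the changes was not tested.

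Array medians ran from 20.3 to 26.2 in signal, the deposited linear unit, and markers of the proximal tubule were high: the 8 genes of its convoluted segments had median control signals of 635 to 4023. In rats given 3 mg/kg on day 8, the injury gene Havcr1 (KIM-1) had signals of 680 to 2177, against 1.73 to 10.2 in the controls. The 3'/5' signal ratio of actin, a measure of RNA quality, was 5.89 ± 0.10 (SD, n = 5) for 3 mg/kg on day 3 against 4.66 ± 0.25 in the controls, without overlap, and its part in the day 3 results was not tested beyond a fit with the ratio as a covariate, in which the same number of members was called. On day 8 the ratio was 5.30 ± 0.53 for 3 mg/kg and 5.32 ± 0.48 in the controls. All log2 changes below are of (signal + 16) with the standard error of the fit, which understates the change of dim genes, and an adjusted p is from limma with Benjamini-Hochberg adjustment over all genes tested. A gene is called when it is under 0.05.

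On day 8 after 3 mg/kg, 6 of the 9 transporter genes were lower than in the controls and none was higher. They spanned both membranes: Slc7a13, Slc1a1 and Slc3a1 on the apical side, Slc7a8 and Slc7a7 on the basolateral side, and Slc7a12. The log2 changes of the called members ran from -2.51 for Slc7a13 to -0.24 for Slc7a7, whereas Slc7a9, Slc6a18 and Slc3a2 lay between -0.11 and 0.05. Of all genes tested, 37.3% were called in this comparison, 15.9% as lower and 21.4% as higher. The median log2 change was -0.30 over the 9 members and 0.04 over all genes. In a tissue homogenate, fewer cells of a type and less RNA per cell cannot be told apart.

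**Figure D1:**
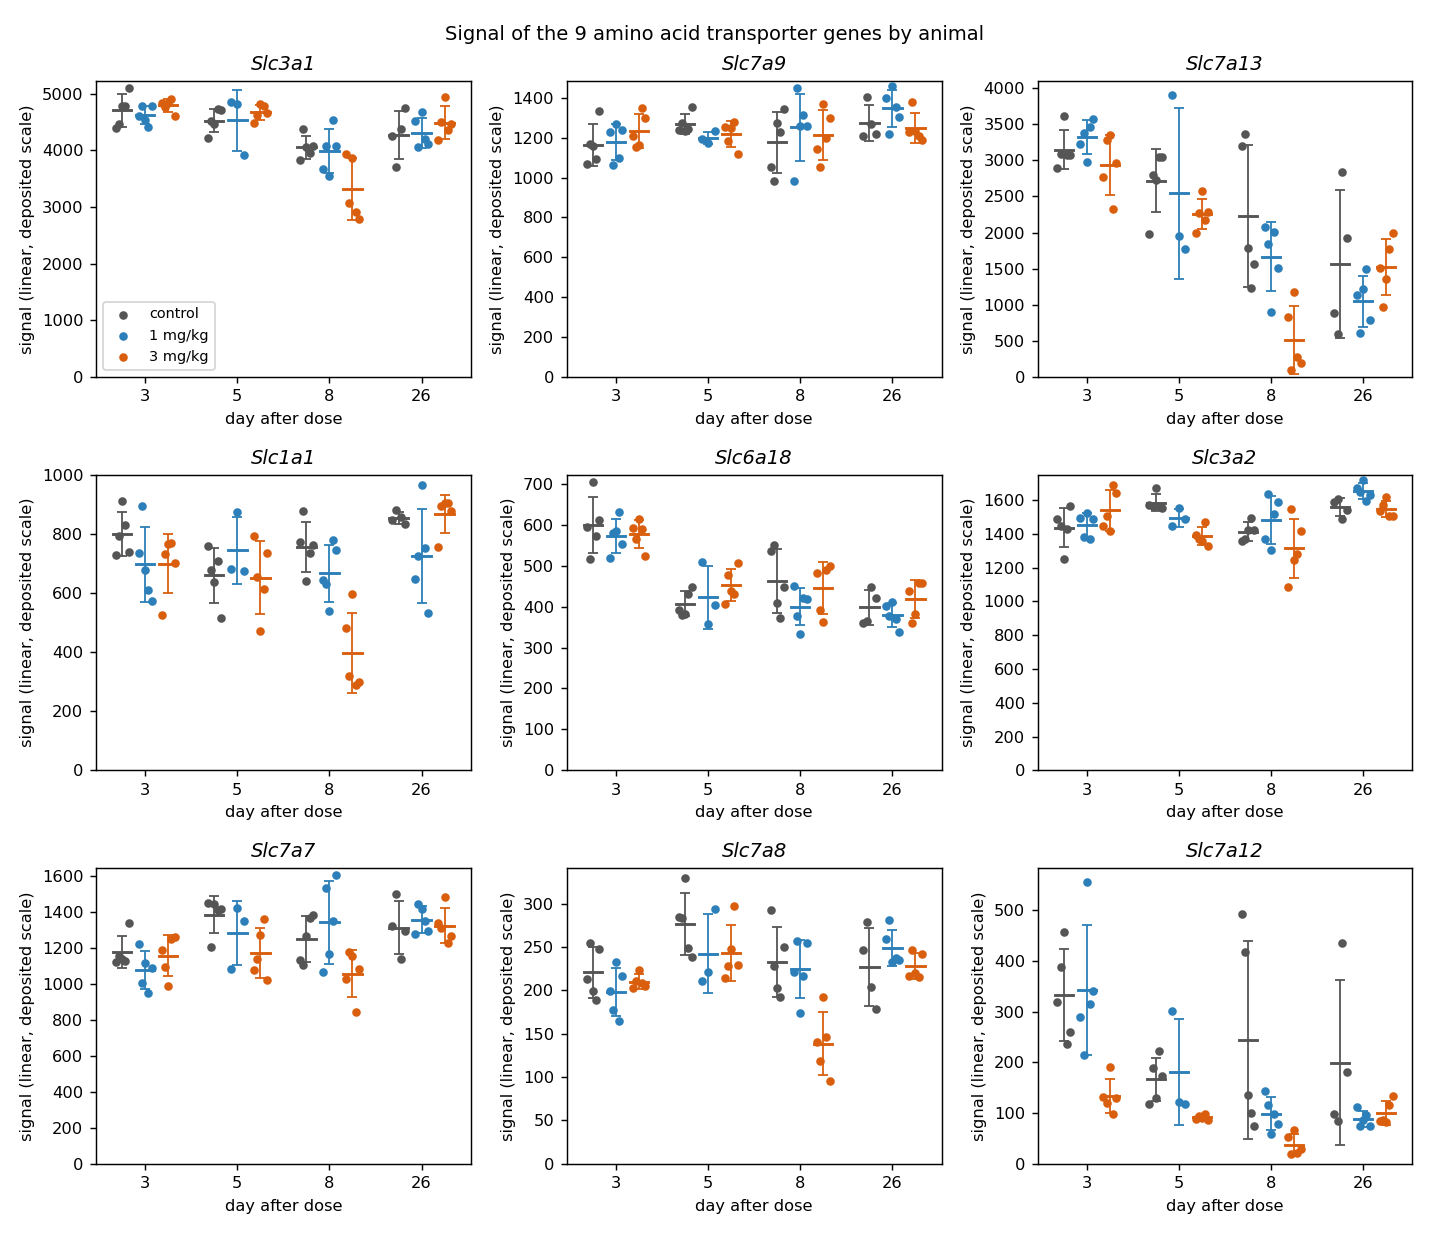
Deposited signal (linear axis from 0) of each of the 9 genes by day after the dose, with a point for each rat, a bar for the group mean and whiskers of 1 SD, for control, 1 mg/kg and 3 mg/kg. On day 8 the 3 mg/kg points of Slc7a13, Slc1a1 and Slc7a12 lie below every control, while those of Slc7a9 and Slc6a18 lie among the controls apart from 1 rat each.

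The apical heavy chain gene Slc3a1 gave control signals of 3819.6, 4372, 4047, 3948 and 4072 on day 8. After 3 mg/kg the signals were 3939.7, 3073, 3867, 2906 and 2791, so that rats 1 and 3 lay within the control range and rats 2, 4 and 5 below all controls. The log2 change was -0.30 ± 0.07 (adjusted p = 0.000649), and -0.54 with quantile normalization. Its light chain gene Slc7a9 did not follow: the controls gave 1050.3, 983, 1275, 1228 and 1344 and the treated rats 1143, 1052, 1366, 1200.4 and 1299. The groups overlapped throughout, with a log2 change of 0.05, a 95% interval from -0.11 to 0.20 and adjusted p = 0.662. Slc7a9 also had a narrow range of group means over the whole study, from 1164 in the day 3 controls to 1346 after 1 mg/kg on day 26, and neither dose passed the test for it on any day.

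Slc7a13, the other light chain that binds rBAT, was the member with the largest fall. Its control signals on day 8 were 3193, 3361, 1787, 1237 and 1564. After 3 mg/kg they were 830.05, 96.2, 1174, 269 and 185, all 5 below the lowest control, and rats 2, 4 and 5 again lay far under rats 1 and 3. The log2 change was -2.51 ± 0.37 (adjusted p = 2.86e-07) and stood at rank 15 from the lowest of the 11683 genes. This standard error pools the spread of all 12 groups, while the log2 SD was 1.43 in the treated rats and 0.64 in the controls. Over the alternatives run, the adjusted p from limma was at most 0.00981. As a share of the mean of the day 8 controls, the treated rats held 37.2%, 4.32%, 52.7%, 12.1% and 8.31%.

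Slc1a1, the apical acidic amino acid transporter gene, had control signals of 774, 878, 640.9, 738 and 762. The treated rats gave 482, 321, 596, 291 and 299.7, all below every control, with rats 1 and 3 the highest. The log2 change was -0.95 ± 0.15 (adjusted p = 6.45e-07). The second probe set of Slc1a1 fell by 0.49 on the log2 scale (SE 0.12, adjusted p = 0.000864), with treated signals of 273 to 408 below every control (417 to 566). Both probe sets fell, though by different amounts, and on the second one rat 2 was the highest of the treated rats. Slc6a18 gave control signals of 537, 550.3, 409, 371 and 448 and treated signals of 483, 392, 363, 490.1 and 499. These groups overlapped, and the log2 change was -0.05 with a 95% interval from -0.24 to 0.14 (adjusted p = 0.72).

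On the basolateral side, the heavy chain gene Slc3a2 had control signals of 1359.7, 1368, 1421, 1494 and 1423 on day 8. After 3 mg/kg they were 1088, 1547, 1244, 1278 and 1417, more scattered than the controls and on both sides of them. The log2 change was -0.11 ± 0.06 (adjusted p = 0.142). The light chain gene Slc7a8, which encodes an exchanger of neutral amino acids, fell by 0.70 on the log2 scale (SE 0.12, adjusted p = 6.87e-06). Its control signals were 293, 228, 203, 192 and 249.6, and the treated ones 140.4, 119, 192, 146 and 95.5. Rats 1, 2, 4 and 5 were below every control, and rat 3 was level with the lowest.

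Slc7a7, the light chain gene that is mutated in lysinuric protein intolerance, showed the smallest called fall on day 8, with controls of 1134, 1103, 1266, 1365 and 1384 and treated rats of 1025, 1175, 1155, 846 and 1086. The groups overlapped, 3 of the 5 treated rats being below all controls, and the log2 change was -0.24 ± 0.09 (adjusted p = 0.039). This call was lost without the control replicate 3, 4 or 5 or the treated replicate 1 or 4 (adjusted p from 0.0642 to 0.188), with arrays centred on the 75th percentile (adjusted p = 0.0516) and when only the compared groups were fitted (adjusted p = 0.1). In that fit of the 2 groups alone Slc3a1 also missed the threshold, with adjusted p = 0.0521.

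On day 8 the log2 change of Slc7a12 was -2.0 ± 0.33 (adjusted p = 3.77e-06), and the gene stood at rank 26 from the lowest of all genes. Its log2 SD was 0.54 in the treated rats and 1.14 in the controls. Over the alternatives run, its adjusted p from limma was at most 0.0107. The controls gave 492, 418, 136, 99.5 and 73.5, and the treated rats 53.1, 18.8, 65.6, 21.9 and 29.9. All treated rats were below every control, and the signals of rats 2 and 4 were close to the median of all probe sets on an array. Day 8 control replicates 1 and 2 stood high for Slc7a12. They were also the 2 highest of their group for Slc7a13, Slc1a1, Slc6a18 and, outside the set, the cation transporter gene Slc22a2. On the second probe set of Slc1a1 they were not, with 417 and 500 against 566, 507 and 451 in replicates 3, 4 and 5. For Slc7a9, Slc7a7 and Slc3a2 control replicates 1 and 2 were the 2 lowest. Without these 2 replicates, an alternative chosen after seeing the data, 6 members were still called. The log2 change was then -1.19 for Slc7a12 (adjusted p = 0.00307), -2.07 for Slc7a13 and -0.87 for Slc1a1. It was -0.60 for Slc7a8, -0.34 for Slc7a7 and -0.29 for Slc3a1. Among the uncalled members it was -0.09 for Slc7a9, 0.11 for Slc6a18 and -0.15 for Slc3a2.

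The 5 rats given 3 mg/kg differed on day 8 in a way that several members shared. Rats 1 and 3 had the higher signals and rats 2, 4 and 5 the lower ones for Slc7a13, Slc7a12, Slc1a1 (brighter probe set) and Slc3a1. The same held for Umod, a gene of the thick ascending limb that encodes uromodulin, with 785 and 921 in rats 1 and 3 against 2.68, 21.6 and 5.37 in the others (controls 2393 to 3177). Havcr1 did not divide them so: it was 2177 in rat 1 and 680 in rat 3, with 829.5, 1581 and 1640 in rats 2, 4 and 5. Slc7a9, Slc6a18, Slc7a7 and Slc7a8 did not divide the rats this way either, though rat 3 was the highest for Slc7a8. Nor did the second probe set of Slc1a1, with 373 and 375 in rats 1 and 3 against 408, 273 and 298 in the others. Slc3a2 went the other way, with rats 1 and 3 (1088 and 1244) below rats 2, 4 and 5 (1278 to 1547). With 5 rats the division is a description, and no test was made of it.

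**Figure D2:**
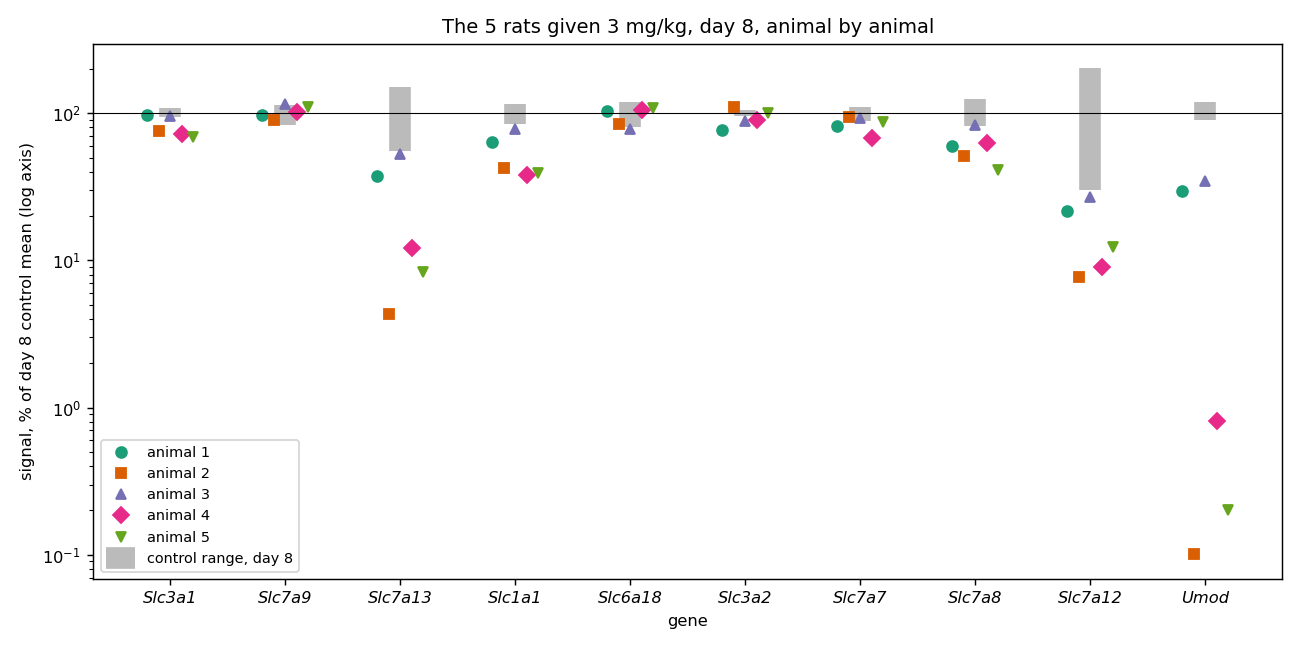
Signal of the 9 genes and of Umod in each of the 5 rats given 3 mg/kg and killed on day 8, as a percentage of the day 8 control mean on a log axis, with grey bars for the range of the 5 controls. Rats 1 and 3 lie above rats 2, 4 and 5 for Slc3a1, Slc7a13, Slc1a1 (brighter probe set), Slc7a12 and Umod, and Slc7a13 spans 4.32% to 52.7%.

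Earlier after 3 mg/kg, Slc7a12 was the member that moved. On day 3 it fell by 1.21 on the log2 scale (SE 0.33, adjusted p = 0.0136), from control signals of 318, 388, 457, 236 and 261 to 132, 119, 189.9, 97.8 and 129, all below every control. It was the sole member called of the 9, where 4.28% of all genes were called lower, and the count was 1 under every alternative run. Of 4 blood markers 2 also fell on day 3, and the summed signal of the 4 was 522 to 1098 against 1652 to 2798 in the controls, without overlap. The part of this in the Slc7a12 result was not tested. The other 8 members had log2 changes from -0.20 (Slc1a1) to 0.10 (Slc3a2).

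On day 5 the called member was Slc3a2, which fell by 0.19 on the log2 scale (SE 0.06, adjusted p = 0.0352). Its controls gave 1571, 1561, 1671, 1561 and 1553 and the treated rats 1394, 1370.2, 1358, 1469 and 1329.6, so that the groups did not overlap. Of all genes, 3.49% were called lower on that day. The call was lost when any of the 10 arrays other than replicate 4 of the treated group was left out (adjusted p from 0.0518 to 0.0979) and with arrays centred on the 75th percentile (adjusted p = 0.0738). Slc7a12 was again below every control in all 5 rats on day 5, with 89.0, 94.2, 89.9, 97.7 and 85.5 against 119, 188, 130.5, 222 and 174, but its log2 change of -0.74 ± 0.33 was not called (adjusted p = 0.165). With the 2 groups fitted alone, where its own narrow spread counts for more, the adjusted p was 0.004. Slc7a7 had a log2 change of -0.24 on day 5, the same size as on day 8, with adjusted p = 0.107.

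By day 26 no member differed from its controls at 3 mg/kg in limma (0 called, and 0 at an unadjusted p under 0.05), where 0.753% of all genes were called. Log2 changes ran from -0.64 for Slc7a12 to 0.18 for Slc7a13. Slc7a12 gave 84.4, 86.0, 81.7, 116 and 134 against control signals of 97.8, 84.8, 434 and 182, so that the controls themselves were far apart. Its log2 change was -0.20 without control replicate 3 and -0.92 without control replicate 2. Slc7a13 gave 1503, 974, 1355, 1776 and 1992, inside the control range of 591 to 2845, with a log2 change of -0.20 without control replicate 2 and 0.55 without control replicate 3. None of these was called. For Slc1a1 the interval was narrower, with a log2 change of 0.02 and a 95% interval from -0.29 to 0.33, and for Slc3a1 it ran from -0.08 to 0.23.

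**Figure D3:**
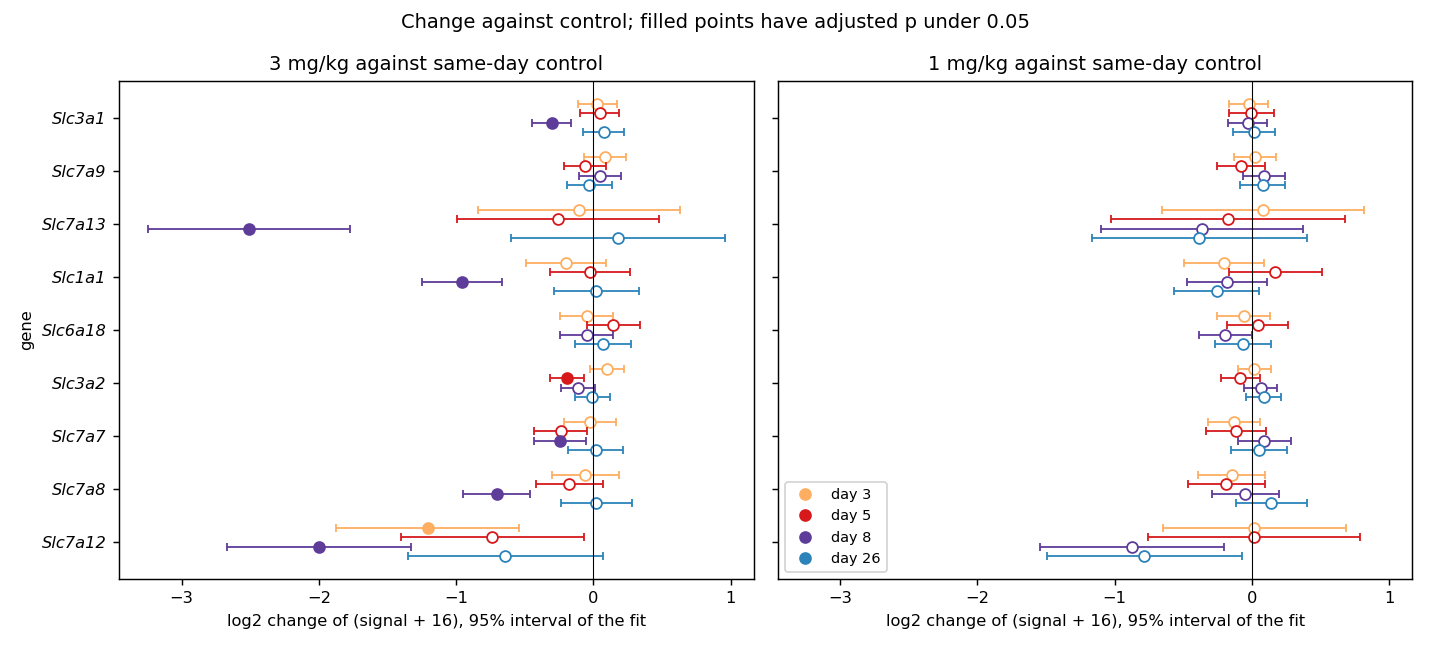
Log2 change of (signal + 16) against same-day controls for the 9 genes, at 3 mg/kg on the left and 1 mg/kg on the right, with 95% intervals of the fit, colours for the day and filled points for an adjusted p under 0.05. Filled points at 3 mg/kg are 6 genes on day 8, Slc7a12 on day 3 and Slc3a2 on day 5, and no point is filled at 1 mg/kg.

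The difference between days was tested as a change of the 3 mg/kg effect. From day 3 to day 5 it passed for no member in limma (0 called and 1 at an unadjusted p under 0.05, with 1.52% of all genes called). That member was Slc3a2, with a log2 change of -0.29 (adjusted p = 0.0635). From day 5 to day 8 the effect became lower for 4 members, where 7.69% of all genes did: Slc7a13 by a log2 difference of -2.25 ± 0.52 (adjusted p = 0.00197), Slc1a1 by -0.93 ± 0.21 (adjusted p = 0.00128), Slc7a8 by -0.53 and Slc3a1 by -0.35. In the fit of the 4 groups alone Slc3a1 lost its call (adjusted p = 0.0536), and with quantile normalization its difference was -0.55. For Slc7a12 the difference was -1.26 ± 0.47 (adjusted p = 0.0565). It was called with no offset (-1.61, adjusted p = 0.031) and without control replicate 4 of day 5, control replicate 3, 4 or 5 of day 8 or treated replicate 1 or 3 of day 8 (adjusted p from 0.0165 to 0.0499), whereas without the day 8 control replicates 1 and 2 it was -0.46 (adjusted p = 0.498). With the second probe set of Slc1a1 the difference was -0.40 (adjusted p = 0.0896). The Slc7a8 difference lost its call in the fit of the 4 groups alone (adjusted p = 0.088), without the day 8 control replicates 1 and 2 (adjusted p = 0.106) and without any of 6 single arrays: control replicate 4 or 5 of day 5, control replicate 1 of day 8, treated replicate 4 of day 5, or treated replicate 2 or 5 of day 8.

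From day 8 to day 26 the effect rose back for 5 members, where 7.3% of all genes rose. The log2 difference was 2.69 ± 0.53 for Slc7a13 (adjusted p = 0.000334), 0.98 ± 0.21 for Slc1a1 (adjusted p = 0.000894), 0.73 ± 0.18 for Slc7a8, 0.38 ± 0.10 for Slc3a1 and 1.36 ± 0.48 for Slc7a12 (adjusted p = 0.049). In the fit of the 4 groups alone Slc3a1 lost its call (adjusted p = 0.089), and with the second probe set of Slc1a1 the difference was 0.57 (adjusted p = 0.0186). The Slc7a12 difference was at the edge of the threshold. It fell to 0.55 (adjusted p = 0.449) without the day 8 control replicates 1 and 2, and leaving out any 1 of the 19 arrays ended the call (adjusted p up to 0.142), except for control replicates 3, 4 and 5 and treated replicates 1 and 3 of day 8, control replicate 3 and treated replicate 1 of day 26.

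After 1 mg/kg no member was called by limma on any day. Of all genes, 0.0942% were called on day 3 and 0.0171% on day 5, then 0.522% on day 8 and 0.00856% on day 26. The members with an unadjusted p under 0.05 numbered 0, 0, 2 and 1 in turn. On day 8 these were Slc7a12 and Slc6a18, with log2 changes of -0.87 (adjusted p = 0.24) and -0.19 (adjusted p = 0.385). Both moved close to 0 without the day 8 control replicates 1 and 2, at -0.07 and -0.03. On day 26 it was Slc7a12, at -0.78 (adjusted p = 0.731). The 95% intervals on day 8 rest on a spread pooled over all groups. They ran from -0.17 to 0.11 for Slc3a1, from -0.06 to 0.24 for Slc7a9 and more widely for Slc7a13, from -1.10 to 0.37. Slc7a9 itself had a log2 SD of 0.19 in the day 8 controls and 0.20 after 1 mg/kg on that day, the widest of its groups.

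Within the group given 1 mg/kg and killed on day 8, rat 3 stood low for many members. It had the lowest signal of its group for Slc7a13 (905, the others 1508 to 2071), Slc7a12 (58.0, the others 79.2 to 144), Slc1a1, Slc3a1, Slc6a18, Slc3a2 and Slc7a8. On the second probe set of Slc1a1 rat 1 was the lowest (352), with rat 3 at 445 and the others at 436 to 681. Rat 3 also had the lowest Umod signal (1157, the others 2424 to 3075) and the highest Havcr1 signal, 1085. Havcr1 was 912 in rat 1 and 17.6 to 32.9 in rats 2, 4 and 5. Rat 1 had the highest actin 3'/5' ratio of all arrays, 8.58, and the lowest Slc7a9 and Slc7a7 signals of its group, at 985 and 1066. No test was made of single rats.

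Between the doses, 3 mg/kg was set directly against 1 mg/kg. On day 8, 7 members were lower at the higher dose, where 11.1% of all genes were, with log2 differences of -2.15 ± 0.37 for Slc7a13 (adjusted p = 1.38e-05), -1.12 ± 0.33 for Slc7a12 (adjusted p = 0.00986), -0.77 ± 0.15 for Slc1a1 (adjusted p = 6.19e-05), -0.66 ± 0.12 for Slc7a8 (adjusted p = 4.51e-05), -0.33 for Slc7a7, -0.27 for Slc3a1 and -0.18 for Slc3a2. Slc7a9 (-0.04) and Slc6a18 (0.14) were not called. With an offset of 64 in place of 16, Slc7a12 lost its call (-0.68, adjusted p = 0.054). Slc3a1 was -0.45 with quantile normalization, and the second probe set of Slc1a1 was -0.43 (both still called). With the 2 groups fitted alone 4 members were called, Slc3a1, Slc7a7 and Slc3a2 having adjusted p of 0.167, 0.136 and 0.317. In the fit of all groups the Slc3a2 call was lost with arrays centred on the 75th percentile (adjusted p = 0.093) and without replicate 2, 4 or 5 at 1 mg/kg or replicate 1, 3 or 4 at 3 mg/kg (adjusted p from 0.0593 to 0.167), and the Slc7a7 call without replicate 4 at 3 mg/kg (adjusted p = 0.0504). On day 3 Slc7a12 alone was lower, by -1.23 ± 0.33 (adjusted p = 0.0287, with 1.57% of all genes called lower), from 289, 215, 556, 316 and 339.8 at 1 mg/kg. That call was lost when replicate 3 or 4 at 1 mg/kg, or replicate 1, 2, 4 or 5 at 3 mg/kg, was left out (adjusted p from 0.0523 to 0.107). On day 5 limma called 0 members, 0 having an unadjusted p under 0.05, while 3.97% of all genes were called, and on day 26 it called 0 members (0 at an unadjusted p under 0.05) and 0% of all genes.

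The members differed widely in how steady they were in control rats. Over the 19 controls the highest signal was 6.12 times the lowest for Slc7a13 (591 to 3620) and 6.7 times for Slc7a12 (73.5 to 492), but 1.34 to 1.95 times for the other 7. The coefficient of variation was 36.2% and 58.6% for these 2 genes and 6.85% for the steadiest, Slc3a2. Slc7a13 control means were 3150 ± 276 (SD, n = 5) on day 3, 2720 ± 435 on day 5, 2228 ± 979 on day 8 and 1561 ± 1030 (SD, n = 4) on day 26, with the spread growing as the mean declined. On the log2 scale the difference between days 26 and 3 was -1.26 ± 0.39 (adjusted p = 0.0826), not called, though it was called without control replicate 3 of day 26 (adjusted p = 0.0182). Without that rat Slc7a12 was called too, at -1.37 (adjusted p = 0.0247).

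Slc6a18 was the member that differed between control days, in comparisons added after seeing the data. The day 3 controls had a mean signal of 600.1 ± 68.2 (SD, n = 5), and later controls had 407 ± 30.5 (day 5), 463 ± 78.4 (day 8) and 399 ± 43.0 (day 26, n = 4). Against day 3 the log2 difference was -0.54 ± 0.10 on day 5 (adjusted p = 0.000714), -0.37 ± 0.10 on day 8 (adjusted p = 0.0493) and -0.57 ± 0.10 on day 26 (adjusted p = 0.000991). It was the 1 member called lower in each, where 2.65%, 0.479% and 1.38% of all genes were called lower. The day 8 call was lost without control replicate 1, 3, 4 or 5 of day 3 or 3, 4 or 5 of day 8 (adjusted p from 0.0821 to 0.216). The treated rats of day 3 were as high, at 574 ± 41.6 for 1 mg/kg and 577 ± 33.9 for 3 mg/kg. Day, age of the rat and any processing by day cannot be told apart in this design.

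Set in order of their group means, Slc7a13 was lowest after 3 mg/kg on day 8 (511 ± 468) and next after 1 mg/kg on day 26 (1045 ± 350), and these neighbours overlapped. It was highest after 1 mg/kg on day 3 (3326 ± 233), within the spread of the day 3 controls. Slc7a12 was lowest in the same group (37.9 ± 20.5), with 1 mg/kg on day 26 next at 88.8 ± 15.8 and no overlap between the highest rat of the first, 65.6, and the lowest of the second, 74.6. Slc1a1 was lowest in that group (398 ± 136) and overlapped the next, 3 mg/kg on day 5 (654 ± 124). Slc3a1, Slc3a2, Slc7a7 and Slc7a8 were also lowest after 3 mg/kg on day 8, whereas Slc7a9 was lowest in the day 3 controls and Slc6a18 after 1 mg/kg on day 26.

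Other amino acid and peptide transporters and their partners, a list of 36 genes of which 30 had a probe set and 21 passed the filter and were tested, moved both ways on day 8 after 3 mg/kg. Of the 21, 6 rose (28.6%) and 4 fell (19%), shares not far from the 21.4% and 15.9% of all genes, with a median log2 change of 0.05 against 0.04 for all genes. Among called genes the falls were in the apical peptide transporter Slc15a2 (-1.34 ± 0.17, adjusted p = 1.32e-08), the neutral amino acid carrier Slc43a2 (-0.63 ± 0.09), Slc38a7 (-0.60 ± 0.12), a lysosomal carrier of glutamine, and Slc16a10 (-0.18 ± 0.07), the basolateral carrier of aromatic amino acids. The largest called rises were in the glycine transporter Slc6a9 (0.63 ± 0.17), the cationic amino acid transporter Slc7a1 (0.57 ± 0.09), the low-affinity peptide transporter Slc15a1 (0.56 ± 0.20) and Slc7a6 (0.33 ± 0.12), a light chain closely related to that of Slc7a7. Slc6a9 and Slc7a6 were dim, with median control signals of 25.8 and 22.1, close to the array medians. Slc7a1 and Slc15a1 had 47.7 and 154. Cltrn, which encodes collectrin, the partner that brings Slc6a18 to the membrane, had a log2 change of -0.07 (95% interval -0.19 to 0.05, adjusted p = 0.361). Slc6a19 was not analysed here. On day 3 the list had 2 falls and 0 rises, where 4.28% of all genes were called lower and 5.57% higher. On day 5 it had 1 of each, where 3.49% were called lower and 5.31% higher, and on day 26 limma called 0 of the 21 (2 at an unadjusted p under 0.05).

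**Figure D4:**
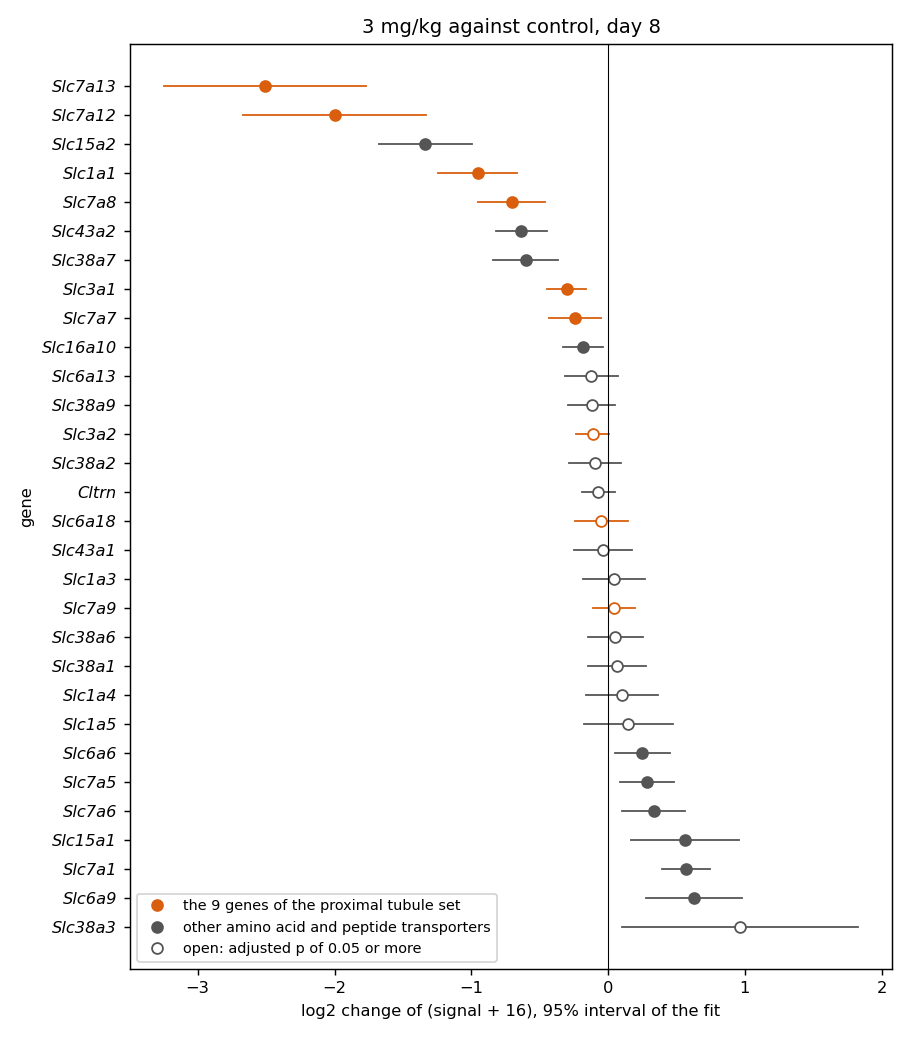
Log2 change of (signal + 16) on day 8, 3 mg/kg against control, for the 9 genes (orange) and the 21 other tested amino acid and peptide transporters and partners (grey), sorted by value, with 95% intervals of the fit and open points where the adjusted p was 0.05 or more. The 9 genes lie between -2.51 and 0.05, while the others run from -1.34 for Slc15a2 to 0.96 for Slc38a3, which is not called.

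Markers of the tubule's segments were read beside the members on day 8 after 3 mg/kg, when 21.4% of all genes were called higher and 15.9% lower. Of 5 tested markers of the straight segment S3, where Slc7a13 is made, 2 fell and 0 rose. These were Slc22a7 and Acsm3, each by 0.67 on the log2 scale. The summed signal of the 5 was 480 to 1517 against 1108 to 1483 in the controls. In the controls most of it was Acsm3, with a median signal of 1097. The other markers had medians of 10.4 to 65.0, and Slc5a1 (12.4) and Slc22a13 (10.4) lay under the lowest array median, 20.3. Of 8 markers of the convoluted segments, 2 fell and 1 rose: Slc5a2, the glucose cotransporter of the early tubule, by -1.25 ± 0.15, Slc5a12 by -0.37 ± 0.14 and Slc22a12 by 0.48 ± 0.14. Of 10 further proximal tubule markers, not split by segment, 4 rose and 1 fell. The glucose transporter Slc2a2 was up by 0.74 ± 0.17 and the cation transporter Slc22a2 changed by -1.85 ± 0.20. The summed signal of the 10 was 23257 to 29591 against 21977 to 24675 in the controls. All 7 tested markers of the thick ascending limb and distal tubule, from a list of 8, fell, and their sum was 739 to 5695 against 10547 to 11855. Markers of macrophages rose for 6 of 8, with a sum of 2534 to 3767 against 1992 to 2249. Markers of fibroblasts and matrix rose for 3 of 6, with a sum of 3049.7 to 4275 against 2226 to 2558. Of the collecting duct 3 of 8 fell and 1 rose, of the endothelium 3 of 6 fell, of podocytes 2 of 4 fell, of blood 2 of 4 rose and of lymphocytes 1 of 4 rose. The part of these shifts in the members' changes was not tested.

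Some genes outside the set followed its members closely across the 57 arrays on the log2 scale, given as descriptions over arrays that share groups and scaling. Slc7a13 was most like Gclc (Pearson r = 0.973), which encodes the catalytic subunit of the enzyme that makes the first intermediate of glutathione, and Tff3 (0.967). Slc7a12 was most like Slc15a2 (0.914) and Prep (0.903), and Slc3a1 like Fxyd2 (0.857), a regulator of the sodium pump, and Defb1 (0.853). Slc1a1 was nearest to Prps2 (0.832) and the sodium-proton exchanger gene Slc9a3 (0.816), Slc6a18 to Cryab (0.868) and Slc23a3 (0.86), and Slc7a8 to Clcn6 (0.817) and Igfbp5 (0.816). Slc3a2 was nearest to Pyroxd2 (0.757) and Plekhb2 (0.753), Slc7a7 to Epb41l3 (0.732) and Slc37a4 (0.704), and Slc7a9 to Ptgr1 (0.558) and Vil1 (0.557), the weakest match of the 9. Between members, Slc3a1 went with Slc7a13 (r = 0.801) but hardly with Slc7a9 (0.0671), the other light chain that binds rBAT, and Slc7a13 went with Slc7a12 (0.803).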

How the data were processed

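The authors deposited a linear intensity for every probe set on every array, computed with MAS5, per the submitters' processing notes. Which version was used, how background was treated and what was filtered is not stated in the notes or labels used. The table shows that each array had been scaled to the same level, the mean without the lowest and highest 2% of probe sets being 99.99 on every array. No detection calls were used. The number of arrays limits the precision.

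Of 31099 probe sets, 57 controls were left out, 20826 had 1 gene symbol in the platform annotation (updated through Entrez numbers), 436 listed several, 9780 listed none, and only probe sets with 1 symbol were given a name. Values were taken as log2(signal + 16), probe sets above the 40th percentile of their array on at least 3 arrays were kept (21829), and the one with the highest mean stood for each of 11683 genes. limma 3.58.1 in R 4.3.3 fitted 1 mean for each of the 12 groups over all 57 arrays, with moderated variances and an intensity trend. Tests were two-sided, adjusted by Benjamini-Hochberg within each comparison, with a threshold of 0.05. Standard errors pool the spread over all groups. The code of the fit was checked on simulated data with normal noise and the same spread in every group. That check does not cover groups of unequal spread, such as those of Slc7a12 and Slc7a13.

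All 9 members are named whatever their result. Named besides are the 4 largest rises and falls on day 8 at 3 mg/kg among called transporters of a list, the 2 genes most like each member by Pearson correlation, and up to 2 markers per list with the largest called change. Further markers, Umod among them, were named after their values were seen. The members and lists were chosen with earlier results of these data known. Alternatives changed the offset, normalization, filter, choice of probe set, variance model, groups fitted, array weights, actin ratio, replicate block and each array left out. Promoter windows came from RefSeq (GRCr8).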

Additional observations from a re-analysis of the deposited data

Results flagged for a closer look

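Among 99 sets of 4 or 5 signals of a member in a group, 7 had a rat set apart from the rest by Dixon's criterion, which chance gives in about 1 in 20 sets. Slc7a13 was 1986 in control replicate 1 of day 5, with the others at 2732 to 3047. Slc1a1 was 527 in replicate 1 of 3 mg/kg on day 3, with the others at 704 to 770.1, and 756 in replicate 1 of 3 mg/kg on day 26, with the others at 881 to 908. Slc7a9 was 1379.6 in replicate 2 of 3 mg/kg on day 26, with the others at 1189 to 1236. Slc3a2 was 1671 in control replicate 3 of day 5, with the others at 1553 to 1571. Slc7a7 was 1336 in control replicate 5 of day 3, with the others at 1122 to 1155, and 1205 in control replicate 2 of day 5, with the others at 1408 to 1449.7.

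The effect of 3 mg/kg differed between days, by limma's test of that difference, for 9 combinations of gene and days. From day 5 to day 8 the log2 difference was -2.25 for Slc7a13, -0.93 for Slc1a1, -0.53 for Slc7a8 and -0.35 for Slc3a1. From day 8 to day 26 it was 2.69 for Slc7a13, 1.36 for Slc7a12, 0.98 for Slc1a1, 0.73 for Slc7a8 and 0.38 for Slc3a1. These comparisons share the day 8 arrays.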

How the results depend on the processing

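The count of members called at 3 mg/kg was 1 on day 3 and 0 on day 26 under every alternative run, and 4 to 7 on day 8 (5 to 7 with 1 array left out), against 6 as reported. At 1 mg/kg it was 0 on every day throughout. On day 5 at 3 mg/kg it was 0 with arrays centred on the 75th percentile, 2 with the compared groups fitted alone and 0 to 2 with 1 array left out. With the compared groups fitted alone it was 4 for 3 against 1 mg/kg on day 8, 2 for the change from day 5 to day 8, 3 for the change from day 8 to day 26 and 2 for control day 5 against day 3. For 3 against 1 mg/kg on day 3 it was 0 to 1 with 1 array left out. For the change from day 3 to day 5 it was 1 under quantile normalization and with array weights. It was 0 to 1 there with 1 array left out. The calls over all genes also moved, with 535 to 3246 under the alternatives for 3 against 1 mg/kg on day 8 (2704 as reported). On day 5 at 3 mg/kg they numbered 980 to 1384, or 547 to 1096 with 1 array left out (1028 as reported). With 1 array left out, 3 against 1 mg/kg on day 3 gave 179 to 532 (365 as reported). The change from day 3 to day 5 gave 63 to 381 under the alternatives (177 as reported).

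For control day 8 against day 3 the count was 0 with no offset, with no filter, with the filter at the 60th percentile, without the intensity trend, with the compared groups alone and with the replicate block. It was 2 without day 8 control replicates 1 and 2, and 0 to 1 with 1 array left out. For control day 26 against day 3 it was 2 with array weights, 2 with the actin ratio as a covariate and 1 to 3 with 1 array left out. The call of Slc7a12 from day 8 to day 26 was also lost with an offset of 64 (adjusted p = 0.12), with array weights (0.136) and in 7 other settings (0.0513 to 0.215). The causes were not tested.

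Same-numbered arrays of compared groups correlated at -0.168 to 0.259 in their deviations. On day 5 the values were 0.0147 to 0.211 for 3 mg/kg and 0.053 to 0.154 for 1 mg/kg. Differently numbered arrays were not set beside them, so this range cannot decide whether the numbers link rats. With the replicate block, 1, 1, 6 and 0 members were called at 3 mg/kg on days 3, 5, 8 and 26.

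Over all genes, 1151 were called on day 3 at 3 mg/kg (499 with the actin covariate, up to 1732 elsewhere), 4360 on day 8 (2553 to 5325) and 88 on day 26 (8 to 229). Of 4131 single-gene values under the alternatives, 0 called changes reversed, while 135 uncalled ones changed sign, the largest of them 0.36 in size as reported and 0.39 under an alternative. Dim genes, such as Slc7a12 after 3 mg/kg on day 8, are measured close to the array median, where the offset shrinks their change.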
